A study of Mus musculus with 4 samples.

Results

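The genes examined here are the transcriptional feedback genes of the ERK MAP kinase pathway: the inhibitors Spry1, Spry2, Spry4, Spred1 and Spred2, the phosphatases Dusp4 and Dusp6, and the Ets transcription factors Etv1, Etv4 and Etv5. Every probe set that the platform annotation assigns to exactly 1 of these 10 symbols was taken, which gave 27 of the 34945 probe sets with a single symbol (45101 probe sets in all). Etv1 had none, because its 3 probe sets also carry the symbol Gm5454, so no value is given for it and 9 genes were measured. Of the 27 probe sets, 22 passed a filter on dim signals, among them the brightest probe set of each of the 9 genes.

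The arrays compare pigmented melanocytes, in which a point mutation of the tyrosinase gene was corrected, with non-pigmented melanocytes homozygous for that mutation. Both lines are skin melanocytes on a Balb/c background, and each is represented by 2 arrays (replicates 1 and 2). Both were grown with TPA, a phorbol ester that activates protein kinase C and through it the ERK pathway, so no array shows these genes without that stimulus. Each group is a single line. Whether its 2 arrays came from separate cultures is not stated in the labels. The p-values therefore reflect the spread between these arrays alone, part of which may be technical.

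In the ERK pathway, a growth factor receptor activates Ras, which starts a chain of kinases that ends in ERK. ERK in turn raises the transcription of its own inhibitors: Sprouty and Spred proteins act at the level of Ras and Raf, and the dual-specificity phosphatases Dusp4 and Dusp6 remove the activating phosphates from ERK itself, in the nucleus and the cytoplasm. Etv1, Etv4 and Etv5 form the PEA3 group of Ets factors, whose transcripts also follow ERK and fibroblast growth factor signalling. In melanocytes the pathway lies downstream of the Kit and Met receptors, controls growth, and modifies the pigment cell regulator Mitf.

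The arrays divide in a second way that touches every result. Signal of the 5′ control probe set of Gapdh was 746 in pigmented replicate 2 and 705 in non-pigmented replicate 2 (the low arrays), against 15856 in pigmented replicate 1 and 16428 in non-pigmented replicate 1 (the high arrays), while the 3′ signal lay between 12515 and 14832 on all 4. The 5′ signal of Actb was 1140 and 1485 on the low arrays, against 13218 and 14247 on the high ones. The array titles carry 2 dates, each shared by 1 array of either line. Pigmented replicate 2 and non-pigmented replicate 1 share the earlier one. Tyr had signals of 17306 and 11698 in the pigmented line, against 214 and 67.2 in the non-pigmented line. Of 10 melanocyte markers, 8 were higher in the pigmented line by limma, against 1.33% of all genes. Summed signals of the 10 were 132429 and 128597 in the pigmented line, against 14782 and 24626 in the non-pigmented line. Kit, Oca2 and Gpr143 had signals of 62.4 to 166 on the non-pigmented arrays, while Sox10 was bright on all 4 (8268 to 10232). Kit passed the filter on dim signals through its pigmented signals. Of 8 markers tested for Schwann cells and progenitors of the neural crest, 5 were lower in the pigmented line, against 2.03% of all genes. Among them, Sox2 and Nes passed the filter on dim signals through their non-pigmented signals. Summed signals of that list were 2561 and 3555 in the pigmented line, against 22761 and 27736 in the non-pigmented line. Summed signals of keratinocyte, fibroblast, endothelial, immune and muscle markers ran from 387 to 1711 on the pigmented arrays and from 298 to 5529, for muscle, on the non-pigmented arrays. No marker was listed at 0, and the part of other cells in the differences below was not tested. In a bulk RNA sample, fewer cells of a type and less RNA per cell cannot be told apart.

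RefSeq promoters (250 bases before to 50 after a transcription start, GRCm38.p6) were found for 7 of the 10 genes, at 9 starts. Those of Spry1, Dusp6 and Etv5 are shown, because these genes carry the difference between the lines (Spry1) and, beside Etv4, the widest differences between the 2 pigmented arrays (Dusp6, Etv5). Capitals mark GGAAGT, a form of the Ets motif, and no shorter form of it was searched for. The others searched were the AP-1 site TGACTCA, the cAMP response element TGACGTCA and the TATA box TATAAA, each on both strands.
Spry1, chr3:37639697-37639996, plus strand: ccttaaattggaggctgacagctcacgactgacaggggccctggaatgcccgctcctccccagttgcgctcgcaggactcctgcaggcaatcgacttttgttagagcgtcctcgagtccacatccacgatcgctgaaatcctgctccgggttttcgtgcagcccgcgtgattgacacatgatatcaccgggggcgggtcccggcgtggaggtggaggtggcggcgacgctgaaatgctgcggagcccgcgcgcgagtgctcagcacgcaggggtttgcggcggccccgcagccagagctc
Dusp6, chr10:99262981-99263280, plus strand: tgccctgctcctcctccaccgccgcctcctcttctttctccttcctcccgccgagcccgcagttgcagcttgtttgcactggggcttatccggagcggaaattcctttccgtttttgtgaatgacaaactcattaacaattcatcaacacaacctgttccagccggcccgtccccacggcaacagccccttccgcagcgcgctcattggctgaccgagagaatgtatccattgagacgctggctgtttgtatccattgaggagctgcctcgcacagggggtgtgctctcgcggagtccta
Etv5, chr16:22438319-22438618, minus strand: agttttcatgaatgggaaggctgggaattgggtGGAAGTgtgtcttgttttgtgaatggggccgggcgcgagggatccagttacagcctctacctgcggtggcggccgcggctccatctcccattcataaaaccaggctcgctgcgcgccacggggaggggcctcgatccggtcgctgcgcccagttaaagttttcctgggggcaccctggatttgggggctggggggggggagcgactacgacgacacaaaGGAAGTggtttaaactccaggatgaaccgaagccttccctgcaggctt
The Etv5 window holds GGAAGT at 2 positions, 217 bases before the start and from base 3 after it. The window at the other Etv5 start and those of Spry1, Dusp6, Spry2 and Spred1 hold none of the 4 motifs. GGAAGT occurred in 3 of the 9 windows (Etv5, Spred2 and Etv1), against 23.8% of all 32851 promoters. The AP-1 site and the cAMP response element occurred in 0 of the 9, against 5.2% and 1.79% of all promoters. The Spry1, Dusp6 and Etv5 windows have GC contents of 64.3%, 57.3% and 60%, against a median of 52.7%. No match says only that these letters are not in the window.

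The first question was whether the feedback genes differ between the pigmented and the non-pigmented line. One of them passed the test: Spry1 was 8.93-fold lower in the pigmented line, on the scale of signal + 16. By limma, 1 of the 9 genes was called lower and 0 higher at an adjusted p under 0.05, against 2.03% of the 12558 genes tested called lower and 1.33% called higher. At an unadjusted p under 0.05, 3 of the 9 were lower (Spry1, Spred1 and Etv5), against 7.56% of all genes. The log2 difference on the scale log2(signal + 16), pigmented minus non-pigmented, was below 0 in 8 of 9 genes (45.7% of all genes) and had a median of -2.05, against 0.07 over all genes tested. Both pigmented arrays lay below both non-pigmented arrays in 4 of the 9 (Spry1, Spry2, Spred1 and Etv5), against 19.5% of all genes. The difference was below 0 both between the 2 high and between the 2 low arrays in 8 of the 9, against 31.1% of all genes. It was -1 or lower in 4 of the 9 between the high arrays (Spry1, Spry4, Spred1 and Etv5), against 11% of all genes, and in 7 of the 9 between the low arrays, against 13.9%. The median was -0.49 for the high and -3.04 for the low pair.

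**Figure D1:**
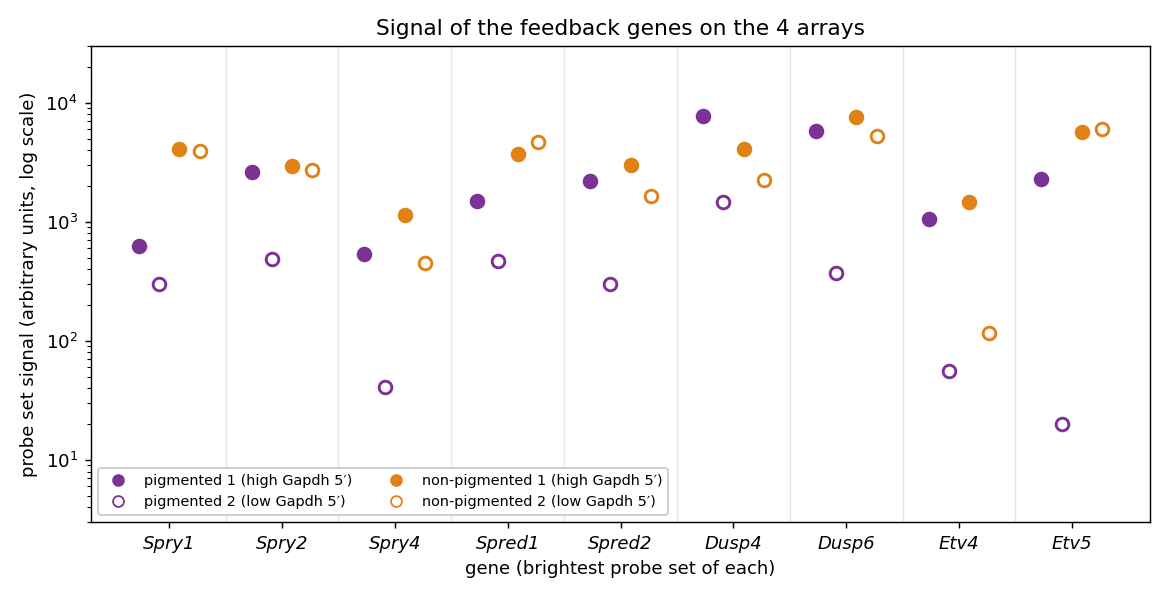
Signal (arbitrary units, log axis) of the brightest probe set of each gene on the 4 arrays, 1 point per array, with purple for the pigmented and orange for the non-pigmented line and open points for the arrays with a low Gapdh 5′ control. The lowest point is pigmented replicate 2 in 9 of 9 genes, against 26.6% of all genes tested, down to a signal of 20.0 for Etv5.

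Sprouty proteins are membrane-associated inhibitors of receptor tyrosine kinase signalling. Spry1 (probe set 1415874_at, its only one) had signals of 628 and 303 in pigmented replicates 1 and 2, against 4109 and 3955 in non-pigmented replicates 1 and 2. The groups did not overlap, and the non-pigmented arrays differed little. The mean log2 value was 8.82 ± 0.72 in the pigmented and 11.98 ± 0.04 in the non-pigmented line (SD, n = 2 each), a log2 difference of -3.16 ± 0.49 (SE) with a limma adjusted p of 0.0275. It was -2.68 between the 2 high arrays and -3.64 between the 2 low arrays, and -3.69 and -2.62 within the earlier and the later date. With the Gapdh class as a block the adjusted p was 0.0104, and with the date as a block 0.0389. Without pigmented replicate 1 or 2 it was 0.00385 or 0.0272, but there the lone pigmented array is assumed to vary like the 2 non-pigmented ones, which alone give the spread. Without non-pigmented replicate 1 or 2 Spry1 was no longer called (0.0963 and 0.0972), with a difference of -3.13 and -3.19.

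Spry2, the family member that also binds the ubiquitin ligase Cbl, gave 2639 and 489 in the pigmented line, against 2965 and 2750 in the non-pigmented line with its brighter probe set (1436584_at). Pigmented replicate 1 lay close to the non-pigmented arrays and replicate 2 far below. The log2 difference was -1.31 ± 0.78 (adjusted p of 0.558), made up of -0.17 between the high and -2.45 between the low arrays. Its dimmer probe set (1421656_at) ran the other way, with 303 and 112 in the pigmented line, against 51.5 and 73.3 in the non-pigmented line. Here the difference was 1.38, and its adjusted p over 22341 probe sets 0.471. This probe set passed the filter on dim signals through the pigmented arrays, so that it had to be higher there if it was tested at all. The mean of both probe sets gave a difference of 0.0348.

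Spry4, which acts on Raf activation, gave 538 and 40.8 in the pigmented line, against 1136 and 451 in the non-pigmented line (1440867_at). This is a log2 difference of -2.05 ± 1.08 (adjusted p of 0.498). A second probe set (1445669_at) gave 284 and 78.2 in the pigmented line, against 509 and 943 in the non-pigmented line, and differed by -2.08 (adjusted p of 0.319 over probe sets). The groups overlapped in the first probe set and not in the second. The other 2 probe sets of Spry4 were too dim to be tested, with signals of 4.71 to 145. None of the Spry4 probe sets passed the test.

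Spred proteins bind neurofibromin, a Ras inactivator, and bring it to the membrane. In humans, loss of SPRED1 causes pigmented skin spots. Spred1 gave 1508 and 468 in the pigmented line, against 3687 and 4670 in the non-pigmented line (1423160_at), so the groups did not overlap. The log2 difference was -2.28 ± 0.62 and missed the threshold (adjusted p of 0.147), also with the Gapdh class as a block (0.0666). It was -1.28 between the high and -3.28 between the low arrays. All 8 probe sets of Spred1 were lower in the pigmented line, by differences between -2.28 and -0.92, and 7 of them were bright enough to be tested. Those were its 7 brightest, and none of them passed the test.

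Spred2 gave 2210 and 302 in the pigmented line, against 3012 and 1644 in the non-pigmented line (1434403_at). In log2 the lines differed by -1.41 ± 0.92 (adjusted p of 0.599). The groups overlapped, since pigmented replicate 1 was above non-pigmented replicate 2. Another of its 5 probe sets, 1441415_at, was level across the arrays, with 380 and 406 in the pigmented line, against 366 and 372 in the non-pigmented line. Over the 4 Spred2 probe sets tested the differences ran from -1.41 to 0.09.

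The phosphatases gave no call. Dusp4, the nuclear enzyme, had 7784 and 1470 in the pigmented line, against 4070 and 2232 in the non-pigmented line, so that the pigmented arrays were both the highest and the lowest. The log2 difference was 0.17 ± 0.81 (adjusted p of 0.962) and turned to -0.0769 when each array was centred on its median. Dusp6, the cytoplasmic ERK phosphatase, had 5762 and 375 in the pigmented line, against 7600 and 5215 in the non-pigmented line. Pigmented replicate 2 stood far below the other 3 arrays. The difference was -2.07 ± 1.17 (adjusted p of 0.527), with -0.40 between the high and -3.74 between the low arrays.

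Of the Ets factors, Etv5 differed most in size and least evenly. Its brightest probe set (1428142_at) gave 2279 and 20.0 in the pigmented line, against 5683 and 6036 in the non-pigmented line. The log2 difference was -4.35 ± 1.75, and missed the threshold (adjusted p of 0.347), with an SD of 4.24 in log2 between the 2 pigmented arrays and 0.06 between the non-pigmented ones. It was -1.31 between the high and -7.39 between the low arrays. A second Etv5 probe set (1450082_s_at) gave 422 and 14.9 in the pigmented line, against 1637 and 141 in the non-pigmented line, and the third (1420998_at) gave 389 and 132 in the pigmented line, against 677 and 312 in the non-pigmented line. In both of these the low array of either line was the dimmer one. The second had a difference of -2.13, which was called with the Gapdh class as a block (adjusted p of 0.036) and not without it (0.698). With that block 2 of the 22 probe sets were called lower (this one and that of Spry1), against 3.5% of all probe sets.

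Etv4 gave 1050 and 55.4 in the pigmented line, against 1477 and 116 in the non-pigmented line (1423232_at). The low arrays lay below the high arrays in both lines, and the groups overlapped. Between the lines the log2 difference was -0.69 ± 1.54 (adjusted p of 0.899), with -0.49 between the high and -0.89 between the low arrays. Its second probe set was too dim to be tested, with signals of 34.4 to 105.

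**Figure D2:**
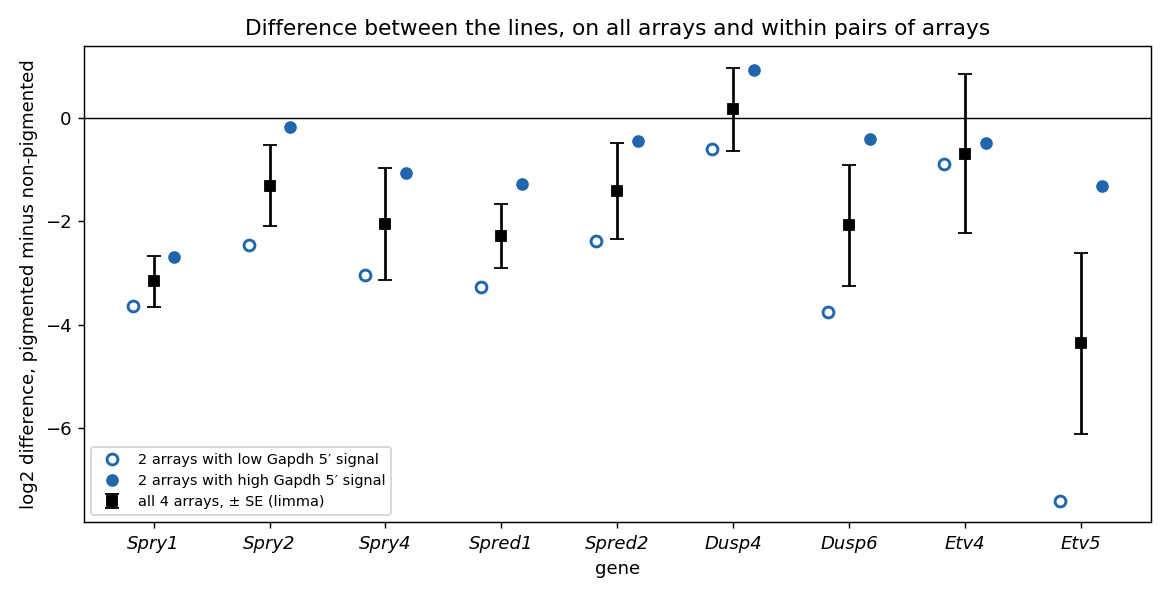
Log2 difference, pigmented minus non-pigmented, of the 9 genes on all 4 arrays (squares, bars are limma's SE) and within the 2 arrays of low (open circles) or high (filled circles) Gapdh 5′ signal. The low pair lies below the high pair in all 9 genes, with the smallest gaps for Etv4 and Spry1.

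**Figure D3:**
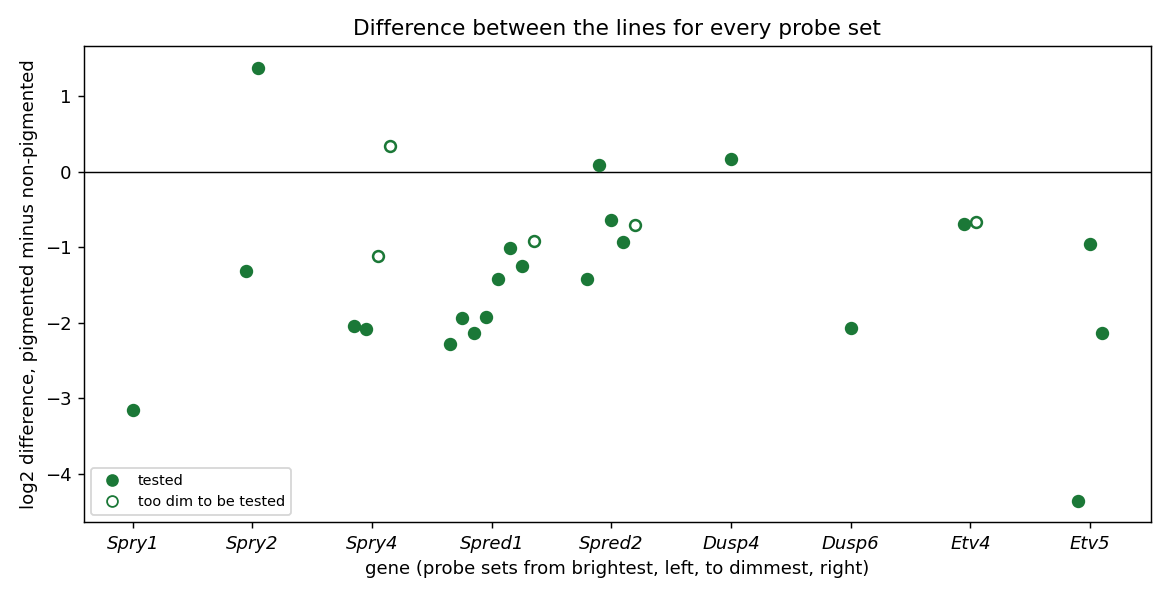
Log2 difference, pigmented minus non-pigmented, of all 27 probe sets, 22 tested (filled) and 5 too dim (open). Points lie below 0 for 19 of the 22 tested, and the exceptions are 1 probe set each of Spry2, Spred2 and Dusp4. Among the 19, Spred2 probe set 1441802_at passed the filter through the non-pigmented arrays, so it had to lie below 0.

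At the level of probe sets, 19 of the 22 tested had a difference below 0, against 43.7% of the 22341 tested, with a median of -1.42, against 0.11. Among the 19, Spred2 probe set 1441802_at passed the filter on dim signals through the non-pigmented arrays. It therefore had to be lower in the pigmented line, as Spry2 probe set 1421656_at had to be higher there. Probe sets of a gene measure the same RNA and are no replicates of each other. Only the Spry1 probe set was called (adjusted p of 0.0487), against 1.04% of probe sets called lower. It sat at the threshold, and it was not called after quantile normalization, without the filter, with a pseudocount of 1, without the intensity trend or with the date as a block.

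The other question was how the genes differ between the low and the high Gapdh 5′ array within a line, which is 1 array against 1 and has no test. In the pigmented line all 9 genes were lower on the low array by a log2 difference of at least 1, against 12.5% of all genes tested, and 7 of them by at least 2, against 2.75%. The median was -2.81, against 0.01 over all genes. These values are of the brightest probe set of each gene. Spred2 probe sets 1441415_at and 1441802_at were higher on the low pigmented array, by 0.09 and 1.46. Spred1 probe set 1443652_x_at was higher there by 0.37. The other 19 of the 22 probe sets tested were lower. Over the 22 the median was -2.02, against -0.01 over all probe sets tested. In the non-pigmented line 2 of the 9 were lower by at least 1 (Etv4 and Spry4), against 9.03%, and 1 by at least 2 (Etv4), against 1.22%. There 7 of the 9 were lower at all, against 48.7%, and the median was -0.54, against 0.02.

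Single genes show the contrast. Etv5 (1428142_at) had a low minus high log2 difference of -6.0 in the pigmented line and of 0.09 in the non-pigmented line. The other Etv5 probe sets were lower on the low array in both lines. Of these, 1450082_s_at had -3.82 in the pigmented and -3.39 in the non-pigmented line, and 1420998_at had -1.45 and -1.08. Dusp6 had -3.88 in the pigmented line and -0.54 in the non-pigmented line. In Dusp6 and in Etv5 probe set 1428142_at the low pigmented array stood far below the other 3. The Etv5 signal there was under the 70.7 of the filter on dim signals, so the size of its difference depends on the pseudocount of 16. The same holds for Spry4 and Etv4, with signals of 40.8 and 55.4 on that array. Spry4 had -3.29 in the pigmented and -1.30 in the non-pigmented line. Spred2 had -2.81 in the pigmented and -0.87 in the non-pigmented line. Spry2 and Dusp4 both had -2.39 in the pigmented line, and in the non-pigmented line Spry2 had -0.11 and Dusp4 -0.86. The 2 genes that moved least in the pigmented line were Spred1 and Spry1. Spred1 had -1.66 in the pigmented and 0.34 in the non-pigmented line. Spry1 had -1.01 in the pigmented and -0.05 in the non-pigmented line. Etv4 was low on both low arrays, at -3.90 in the pigmented and -3.50 in the non-pigmented line. The difference was lower in the pigmented than in the non-pigmented line in all 9 genes, against 50% of all genes, and by at least 1 in 7 of the 9, against 11.4%.

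**Figure D4:**
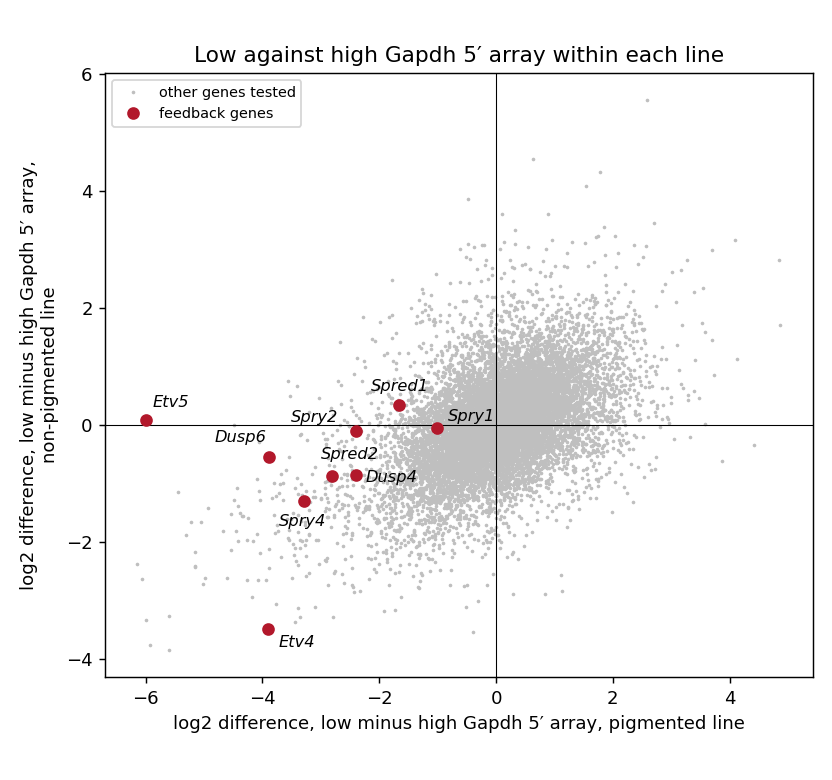
Log2 difference of the low minus the high Gapdh 5′ array in the pigmented line (x axis) against that in the non-pigmented line (y axis), for the 9 feedback genes (red) and the other genes tested (grey). Each gene is shown by its brightest probe set. Etv5, at -6.0 and 0.09, lies farthest to the left of the 9. Etv4, at -3.90 and -3.50, is the only one of the 9 below -2 on both axes.

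This excess in the pigmented line is by arithmetic the same contrast as that between the 2 dates, because the low pigmented array carries the earlier and the low non-pigmented array the later date. A different effect of the Gapdh class in the lines, an effect of the date, and a difference of the single culture behind pigmented replicate 2 cannot be told apart with 4 arrays. The pigmented minus non-pigmented difference was below 0 within both dates in 4 of the 9 genes (Spry1, Spry2, Spred1 and Etv5), against 22.4% of all genes. Its median over the 9 was -3.69 within the earlier and 0.14 within the later date, against 0.08 and 0.07 over all genes.

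A fit with the line and the Gapdh class as terms tested the part of the low minus high difference that both lines share. By limma it called 0 of 12558 genes at an adjusted p under 0.05, although 2789 (22.2%) had an unadjusted p under 0.05, with 1 residual degree of freedom. Of the 9 genes 0 were called and 5 had an unadjusted p under 0.05, all lower on the low arrays (Etv4, Spry4, Dusp4, Spred2 and Dusp6), against 10.7% of all genes in that direction. Etv4 was nearest to the threshold, with -3.70 ± 0.33 and an adjusted p of 0.0891. The same fit over probe sets called 344 of 22341 (1.54%), and among them were 1 probe set of Etv4 (1423232_at) and 1 of Etv5 (1450082_s_at), both with an adjusted p of 0.0441. The count over genes depended on the scaling: 2 of the 9 genes were called after quantile normalization, against 5.34% of all genes, and 4 after centring on the median, against 8.34%.

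Pigmented replicate 2 was the lowest of the 4 arrays in all 9 genes, against 26.6% of all genes tested, and the calls changed with the arrays left out. With 1 pigmented array left, the spread comes from the 2 non-pigmented arrays alone, and the lone array is assumed to vary like them. The calls below therefore restate where each pigmented array lay and are no separate evidence. Without pigmented replicate 1, 7 of the 9 genes were called lower by limma, against 4.02% of all genes. They were Spry1, Spry2, Spry4, Spred1, Spred2, Dusp6 and Etv5, with differences between -2.51 (Spry2) and -7.35 (Etv5). Without pigmented replicate 2, only Spry1 was called, against 3.1% of all genes called lower, and the differences of Dusp6 (-0.13), Spry2 (-0.11) and Spred2 (-0.01) were near 0. Without non-pigmented replicate 1 or 2, 0 of the 9 were called by limma, against 1.54% and 1.01% of all genes called lower, and 2 of the 9 had an unadjusted p under 0.05 in either case, against 10.1% and 9.79% of all genes in either direction.

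Related genes were taken from 6 lists. Among 9 other Sprouty, Spred and Dusp genes tested, 0 were called and the median difference was -0.21. Spred3 had -1.36, Dusp2 1.15 and Dusp16 -0.68, with adjusted p-values from 0.466 to 0.568. Among 13 other Ets factors 0 were called, with a median of 0.09. Elk3, a partner of serum response factor, had -1.49 (adjusted p of 0.162, and 0.0359 with the Gapdh class as a block), Etv2 had 0.89 and Ets1 0.75. Of the Ras to ERK cascade, 13 listed genes were tested and 0 called, with a median of -0.02. Its smallest p-values belonged to Araf (0.81), Sos1 (0.57) and Braf (0.44), with adjusted p-values of 0.512 or more. The kinases and adaptors of the cascade thus differed less in mean than the feedback genes, but no test compared the 2 sets.

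Growth factor receptors differed in both directions, with 2 of 12 called higher and 2 lower, against 1.33% and 2.03% of all genes. Fgfr1, a fibroblast growth factor receptor, had signals of 8.03 and 11.6 in the pigmented line, against 1637 and 3801 in the non-pigmented line. Both pigmented signals were under the 70.7 of the filter, and the gene was tested through its non-pigmented signals. The size of its log2 difference, -6.61 ± 0.53 (adjusted p of 0.00585), therefore depends on the pseudocount. Erbb3, a neuregulin receptor, had 1384 and 1915 in the pigmented line, against 6734 and 9412 in the non-pigmented line (-2.28, adjusted p of 0.0397). Kit, the stem cell factor receptor, had 5086 and 3460 in the pigmented line, against 62.4 and 72.1 in the non-pigmented line (5.66, adjusted p of 0.00554). The mean non-pigmented log2 value of Kit, 6.38, was under the filter, which is 6.44 in log2. Kit was thus tested through its pigmented signals, and the size of its difference depends on the pseudocount. Met, the hepatocyte growth factor receptor, had 11109 and 11667 in the pigmented line, against 979 and 808 in the non-pigmented line (3.65, adjusted p of 0.00792). Over the 12 receptors the low minus high difference within the pigmented line ran from -2.06 (Axl) to 1.65 (Fgfr2), both chosen for this after their values were seen, and pigmented replicate 2 was the lowest array for 2 of the 12.

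Of 13 negative regulators and partners, 1 was called higher and 0 lower, against 1.33% and 2.03% of all genes. Rasgrp3, a Ras activator that binds phorbol esters, had 1851 and 1814 in the pigmented line, against 243 and 375 in the non-pigmented line. In log2 it differed by 2.54 ± 0.44 (adjusted p of 0.038). Errfi1, an inhibitor of the epidermal growth factor receptor, had -1.62 (adjusted p of 0.207) and Rasa1, a Ras inactivator, -0.94 (0.499). The list's median was 0.19.

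Of 18 other transcripts that respond to ERK, 1 was called lower and 0 higher, against 2.03% and 1.33% of all genes. The median was -1.01, against 0.07 over all genes. With the Gapdh class as a block 6 were called lower, against 4.32% of all genes. In that fit 1 was called higher, against 341 of 12558 genes. Epha2, an ephrin receptor, had 46.5 and 24.8 in the pigmented line, against 719 and 339 in the non-pigmented line. Both pigmented signals of Epha2 were under the filter on dim signals, and the gene was tested through its non-pigmented signals. The size of its log2 difference, -3.34 ± 0.54 (limma adjusted p of 0.0304), therefore depends on the pseudocount. Ier3, an immediate early gene, had -1.84 (adjusted p of 0.0747) and Phlda1 1.5 (0.12). Within the pigmented line 7 of the 18 were lower on the low array by at least 1, against 12.5% of all genes, and within the non-pigmented line 4, against 9.03%. Ccnd1 and Myc were picked after their values were seen. Ccnd1, the cyclin D1 gene, had 9760 and 952 in the pigmented line, against 12766 and 11401 in the non-pigmented line. Myc had 2659 and 348 in the pigmented line, against 1251 and 489 in the non-pigmented line. Over the whole list, pigmented replicate 2 was the lowest of the 4 arrays for 12 of the 18 and the highest for 4, against 26.6% and 31.6% of all genes.

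**Figure D5:**
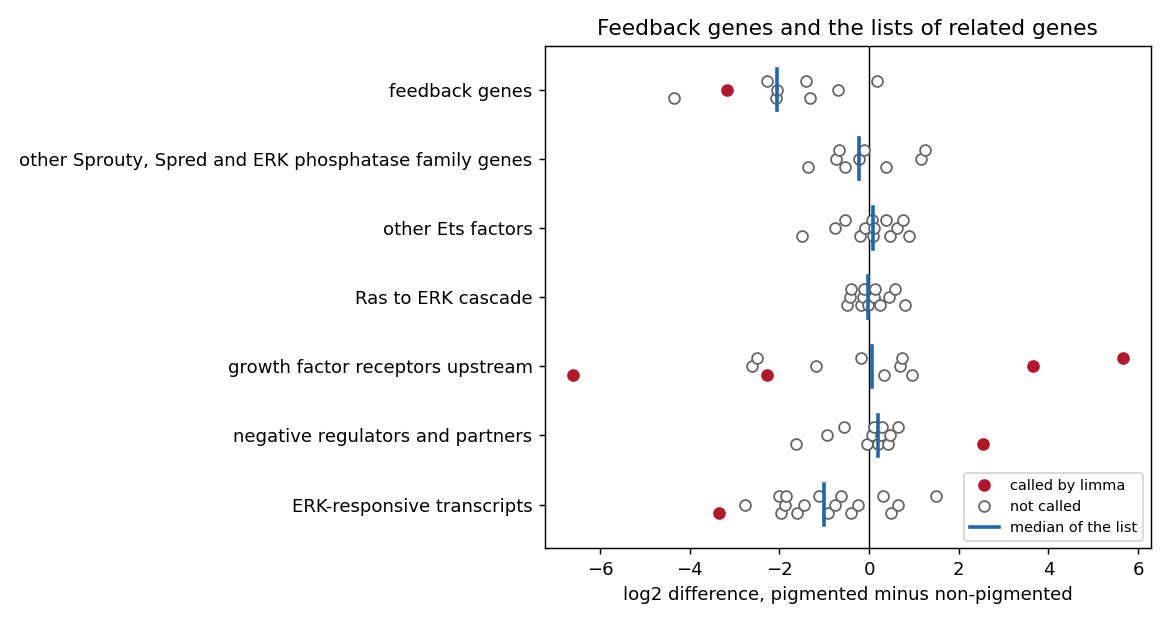
Log2 difference, pigmented minus non-pigmented, of each gene tested in the feedback set and in 6 lists of related genes, with genes called by limma in red and the list's median as a blue line. The medians are -2.05 for the feedback genes, -1.01 for ERK-responsive transcripts and between -0.21 and 0.19 for the other 5 lists.

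The genes whose profile over the 4 arrays was most like that of Spry1, by the Euclidean distance between log2 values centred on each gene's mean, were Sgms2 (0.25), Mmp3 (0.32) and Itga8 (0.36). Sgms2, a sphingomyelin synthase, had signals of 69.4 and 18.8 in the pigmented line, against 425 and 426 in the non-pigmented line. Both pigmented signals were under the 70.7 of the filter, and Sgms2 was tested through its non-pigmented signals. Mmp3, a matrix metalloproteinase, had 125 and 39.9 in the pigmented line, against 905 and 913 in the non-pigmented line. Itga8, an integrin subunit, had 396 and 200 in the pigmented line, against 3557 and 3221 in the non-pigmented line. As for Spry1, the non-pigmented arrays were close to each other and pigmented replicate 2 was the lowest. That follows from how these genes were chosen and is no separate observation. With 4 arrays such a likeness describes these samples only.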

How the data were processed

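RNA of a pigmented and a non-pigmented melanocyte line was measured on 4 Affymetrix mouse arrays, 2 per line. Per the submitters' processing notes the deposited values were made with Affymetrix Expression Console. Its version and the summary algorithm are not given in the sources used here. The authors deposited 1 intensity per probe set, on a linear scale. In each column the mean after trimming 2% at either end is 500. No background or detection column was used, so dim signals cannot be told from background.

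Probe sets were named from the platform annotation: 34945 had a single symbol, 932 several and 9160 none, besides 64 controls. By Entrez number 34741 matched RefSeq and 0 symbols changed. Each of 18193 genes was represented by its brightest probe set in the mean. The filter was the 40th percentile of mean log2 values over all probe sets but the controls (a signal of 70.7). It left out 5635 genes and kept 12558. Groups were compared on log2(signal + 16) with limma 3.58.1 in R 4.3.3 (eBayes with intensity trend) and Benjamini-Hochberg adjustment over all genes, or over 22341 probe sets. Differences on this scale understate the change of dim genes. With 2 arrays against 2, the number of arrays limits the precision, and the smallest exact permutation p is 0.333. Errors beside differences are standard errors.

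Low and high arrays were defined within each line by the Gapdh 5′ control signal, which is no group of the study. Alternatives were the normalization, filter, pseudocount, variance model, probe set summary, the date or the Gapdh class as a block, and leaving out each array. The members, the lists and the rule for named genes (all members, the 3 smallest p-values and any called gene of each list, and 3 genes nearest to a called member) were chosen with earlier results of these data known. Of the listed cascade genes, 7 symbols are not analysed here. The code was tested on simulated data. Figures used matplotlib 3.10.9.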

Additional observations from a re-analysis of the deposited data

Results flagged for a closer look

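Among the 22 probe sets tested, 6 were lower on the low than on the high Gapdh 5′ array in the pigmented line and higher in the non-pigmented line (27.3%, against 14.7% of all 22341 probe sets tested). These are single arrays, so the difference between the lines was not tested, and it coincides with the contrast between the dates. Several of the 6 are probe sets of Spred1 and measure the same RNA, so the share does not count separate genes. The excess of the pigmented over the non-pigmented low minus high difference was -6.08 for Etv5 (1428142_at) and -2.54 for Spry4 (1445669_at). It was -2.16, -1.995 and -1.64 for the Spred1 probe sets 1460116_s_at, 1423160_at and 1452911_at, and -1.72 for the dimmer Spry2 probe set (1421656_at). The other Etv5 probe sets were lower on the low array in both lines. No group has the 4 arrays needed to look for outlying samples within it.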

How the results depend on the processing

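The labels give no replicate numbers, and the arrays of the lines were paired by the date in their titles: with the date as a block 392 genes were called, among them 1 feedback gene. Without single arrays the count of genes called between the lines ranged from 234 to 772, that of feedback genes from 0 to 7 and that of their probe sets from 0 to 6. With the Gapdh class as a block 884 genes were called, against 422, and 2 feedback probe sets, against 1. No feedback probe set (0) was called after quantile normalization, without a filter, with a pseudocount of 1, without the intensity trend, or with the date as a block, where 5 to 6 had an unadjusted p under 0.05 by limma, against 7.95% to 12% of all probe sets. For low minus high arrays the count of genes, 0 as reported, was 671 after quantile normalization, 1047 after median centring, 27 with a pseudocount of 64 and 41 with probe sets averaged per gene. That of feedback genes was 2, 4 and 1 under the first 3 of these. Median centring moved the median difference of all genes between the lines to -0.18, against 0.07. Directions turned for 3 genes. Dusp4 (0.17) became -0.0769 with median centring, -0.26 without non-pigmented replicate 2 and -1.03 without pigmented replicate 1, and ranged from -1.03 to 1.36 over the 4 fits without an array. Etv4 (-0.69) became 1.06 without non-pigmented replicate 1 and 1.26 without pigmented replicate 2, and ranged from -2.64 to 1.26 over those fits. Spry2 (-1.31) became 0.0348 with its probe sets averaged, which oppose each other. Otherwise the cause was not tested. Of the 135 alternative values of single feedback genes, 121 kept their direction and side of the threshold. Changing the filter or the variance model, or adding a block, leaves the difference itself as it was. Under those settings no direction could turn, and only Spry1 was called to begin with. The count of 121 is therefore no measure of how stable the differences are.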
